A study of Homo sapiens with 12 samples.

Results

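The transcripts described here are those of 10 snoRNA host genes, *SNHG1*, *SNHG3*, *SNHG5*, *SNHG6*, *SNHG7*, *SNHG8*, *SNHG12*, *SNHG15*, *SNHG16* and *GAS5*, chosen by symbol among the 60580 genes listed in the deposited count files. All 10 passed the filter of at least 20 counts in at least 1 library, as did 16123 genes in all, so that none of the 10 was lost to low counts. They were chosen with earlier results of these data known, and of 23 other non-coding snoRNA hosts only 16 passed it. The members had between 483 and 9925 counts per library. They were measured by RNA-Seq in HCT116 cells, an established human colorectal carcinoma line. *WT* cells and derivatives whose miR-34a and miR-34b/c loci had been deleted with CRISPR/Cas9 (*miR-34a/b/c-KO*, below *KO*) were treated with DMSO or with 4 µM of 5-FU (5-fluorouracil) for 48 h. Both genotypes had been expanded from single sorted cells, and the *WT* cells had received the Cas9 plasmid without a guide RNA. Whether the replicates of a group are different clones is not given in the sources used here, so that p-values measure the spread between these samples.

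Small nucleolar RNAs (snoRNAs) guide chemical changes of ribosomal and spliceosomal RNA. Box C/D snoRNAs direct ribose methylation and box H/ACA snoRNAs direct pseudouridylation, and in human cells nearly all of them are cut out of introns of longer transcripts. The host genes described here code for no known long protein. Their spliced exons are exported, many are degraded by nonsense-mediated decay (NMD) once ribosomes engage them, and many start with a terminal oligopyrimidine (TOP) tract, a C followed by further pyrimidines, as ribosomal protein mRNAs do. 5-FU is a pyrimidine analogue that inhibits thymidylate synthase and is also built into RNA.

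Of the 12 libraries deposited, the one labelled *WT* 5-FU replicate 1 held the same values as *WT* DMSO replicate 3 at every gene (0 of 60580 differed), and it was left out, so that *WT* 5-FU was represented by 2 libraries and each other group by 3. Total counts ranged from 22831415 to 39064210 per library. The rows of *MIR34A*, *MIR34B* and *MIR34C* were at 0 in every library, also in *WT* cells, and so do not check the deletion. The host transcript of miR-34a, *MIR34AHG*, which extends beyond the deleted stretch, was higher in *KO* cells, at 22.2 ± 0.295 CPM (counts per 1000000 of the scaled library total; SD, n = 3) against 4.84 ± 0.467 (SD, n = 3) in *WT* cells under DMSO. Of 8 markers of colon epithelial carcinoma cells, 7 were tested. *EPCAM*, *CDH1*, *KRT8*, *KRT18*, *KRT19* and *CDX2* had at least 484 counts in every library, whereas *VIL1* had 0 to 53 counts and *CDX1* was at 0 throughout. After 5-FU 4 of the 7 were called higher (edgeR FDR below 0.05 and a fold change above 1.5) in *WT* cells, *CDH1* and the 3 keratins. In *KO* cells 5 were, the same 4 and *VIL1*, which had 0 to 2 counts in the *KO* DMSO libraries. Of all genes tested, 18.5% and 13.3% were called higher. *EPCAM* went the other way without being called, with log2 fold changes of -0.39 in *WT* and -0.48 in *KO* cells, and was lower by FDR alone in both. The part of these marker changes in the results below was not tested.

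In RefSeq, 36 snoRNA genes lie within the 10 hosts, of which 25 are of the box C/D class, 10 of the H/ACA class and 1 is unnamed. Of these, 34 lie inside introns of the host's canonical transcript (SNORA9 in *SNHG15* and SNORA103 in *GAS5* do not). *GAS5* holds 10 C/D genes and SNORA103, *SNHG1* holds 8 C/D genes and the unnamed one, *SNHG16* holds 3 C/D genes and *SNHG5* holds 2. The hosts of H/ACA genes alone are *SNHG3* and *SNHG7* with 2 each and *SNHG8* and *SNHG15* with 1 each, while *SNHG12* is mixed, with 3 H/ACA and 1 C/D gene. *SNHG6* holds 1 C/D gene. The snoRNAs themselves were not measured by these libraries. Of their rows, 19 are listed in the count files, 18 of which were at 0 in every library, and the largest count of any was 4. All values below are therefore those of the host transcripts, and nothing was measured of the snoRNAs they carry.

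One snoRNA of each class is shown, since the class distinguishes the hosts, as the gene strand in GRCh38 (GENCODE release 44 transcripts). In SNORD27, which lies in an intron of *SNHG1*, the capitals mark the C box (TGATGA) and the D box (CTGA). In SNORA24, which lies in an intron of *SNHG8*, they mark a match to the H box (AnAnnA) and the ACA box.
SNORD27, chr11:62855012-62855083, minus strand: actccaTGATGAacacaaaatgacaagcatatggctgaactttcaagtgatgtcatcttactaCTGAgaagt
SNORA24, chr4:118279190-118279320, plus strand: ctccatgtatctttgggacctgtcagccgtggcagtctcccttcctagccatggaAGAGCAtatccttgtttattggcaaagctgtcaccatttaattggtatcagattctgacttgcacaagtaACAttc

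The starts of the host transcripts are shown because a TOP tract is the feature most often named for this family. RefSeq promoter sequences (GRCh38.p14) were at hand for 8 of the 10 hosts, not for *SNHG6* and *SNHG15*. Each run below covers 40 bases before and 20 bases after the start that the RefSeq promoter table gives a host. The other 2 hosts with a sequence, *SNHG1* and *GAS5*, held neither motif and are not shown. *SNHG3*, which is shown, held neither as well. Capitals mark a C followed by at least 4 pyrimidines whose first base lay within 5 bases of the start, and the letters TATAA between 40 and 16 bases before the start, both searched on the gene strand.
SNHG8, chr4:118278722-118278781, plus strand: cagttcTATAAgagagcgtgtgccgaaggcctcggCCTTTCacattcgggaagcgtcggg
SNHG7, chr9:136728165-136728224, minus strand: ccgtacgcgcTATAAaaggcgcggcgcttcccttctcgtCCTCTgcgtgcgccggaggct
SNHG5, chr6:85678714-85678773, minus strand: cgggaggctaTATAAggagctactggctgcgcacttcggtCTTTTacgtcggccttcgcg
SNHG3, chr1:28505903-28505962, plus strand: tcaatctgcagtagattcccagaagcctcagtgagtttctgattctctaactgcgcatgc
SNHG12, chr1:28581854-28581913, minus strand: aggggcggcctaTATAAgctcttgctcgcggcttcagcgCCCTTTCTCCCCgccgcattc
SNHG16, chr17:76557724-76557783, plus strand: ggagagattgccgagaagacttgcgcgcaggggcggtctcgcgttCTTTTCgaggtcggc
The pyrimidine tract was found in 5 of the 8 hosts (*SNHG5*, *SNHG7*, *SNHG8*, *SNHG12* and *SNHG16*), and in 21.1% of all 35116 promoters of the same table. TATAA was found in 4 of the 8 (*SNHG5*, *SNHG7*, *SNHG8* and *SNHG12*), against 3.91% of all promoters. CACGTG, which reads the same on both strands and was searched in the whole 300 bases, was found in *SNHG7* alone, against 7.26% of all promoters. These are matches of letters. The search windows were set after the sequences had been read, and the tract needs a start that is exact to within a few bases. The starts of *GAS5* and *SNHG3* in the table lie upstream of the genes as GENCODE places them. For *SNHG3* the whole run shown ends at 28505962, before the GENCODE start at 28505980. The start of *SNHG12* lies inside the gene rather than at the outer end of its RefSeq record. Of the 5 hosts with the tract, *SNHG8* was called lower after 5-FU in both genotypes, *SNHG5* and *SNHG7* in *KO* cells only and *SNHG12* in neither, and *SNHG16* was higher by less than 1.5-fold. *SNHG3*, called lower in both genotypes, had no such tract at the start in the table, and its GENCODE start was not searched.

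The hosts differed widely in level. In *WT* cells under DMSO, CPM per kb of the canonical transcript was highest for *SNHG16* (477 ± 4.88, SD, n = 3), followed by *GAS5* at 301 ± 18.1 and *SNHG1* at 190.1 ± 7.66. *SNHG6* had 74.1 ± 6.25 CPM per kb, and the next in order were *SNHG5* (43.5 ± 5.75), *SNHG12* (34.1 ± 2.54), *SNHG7* (28.5 ± 0.279), *SNHG3* (24.1 ± 2.72), *SNHG15* (11.5 ± 0.277) and *SNHG8* (8.99 ± 0.48). Each neighbouring pair in this order differed by more than their SDs added together, with the narrowest margin between *SNHG5* and *SNHG12*. The order depends on the length used, however. Per kb of all annotated exons merged, the same 4 hosts came first, at 55.6 (*SNHG1*), 53.4 (*SNHG6*), 46.8 (*GAS5*) and 41.1 (*SNHG16*) CPM per kb. *SNHG5* then came last, at 4.54, so the SDs above do not cover this dependence on length. For *SNHG8* both lengths are long, 6166 bases for the canonical transcript and 6614 for the merged exons. Its RefSeq record spans only 118278762 to 118279823 on chromosome 4, and its low place was not checked with that shorter record. Which isoforms the cells used cannot be read from gene counts.

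As a share of all counts, the 10 hosts together made up 0.114%, 0.114% and 0.108% of the 3 *WT* DMSO libraries and 0.109%, 0.112% and 0.112% of the 3 *KO* DMSO libraries. After 5-FU the share was 0.0887% and 0.0969% in *WT* cells, and 0.0893%, 0.0886% and 0.0843% in *KO* cells. Every library treated with 5-FU thus had a lower share than any library treated with DMSO. *SNHG1*, *SNHG16* and *GAS5* are the most abundant and weigh most in these sums. In bulk RNA, fewer cells with a transcript and less of it per cell cannot be told apart.

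**Figure D1:**
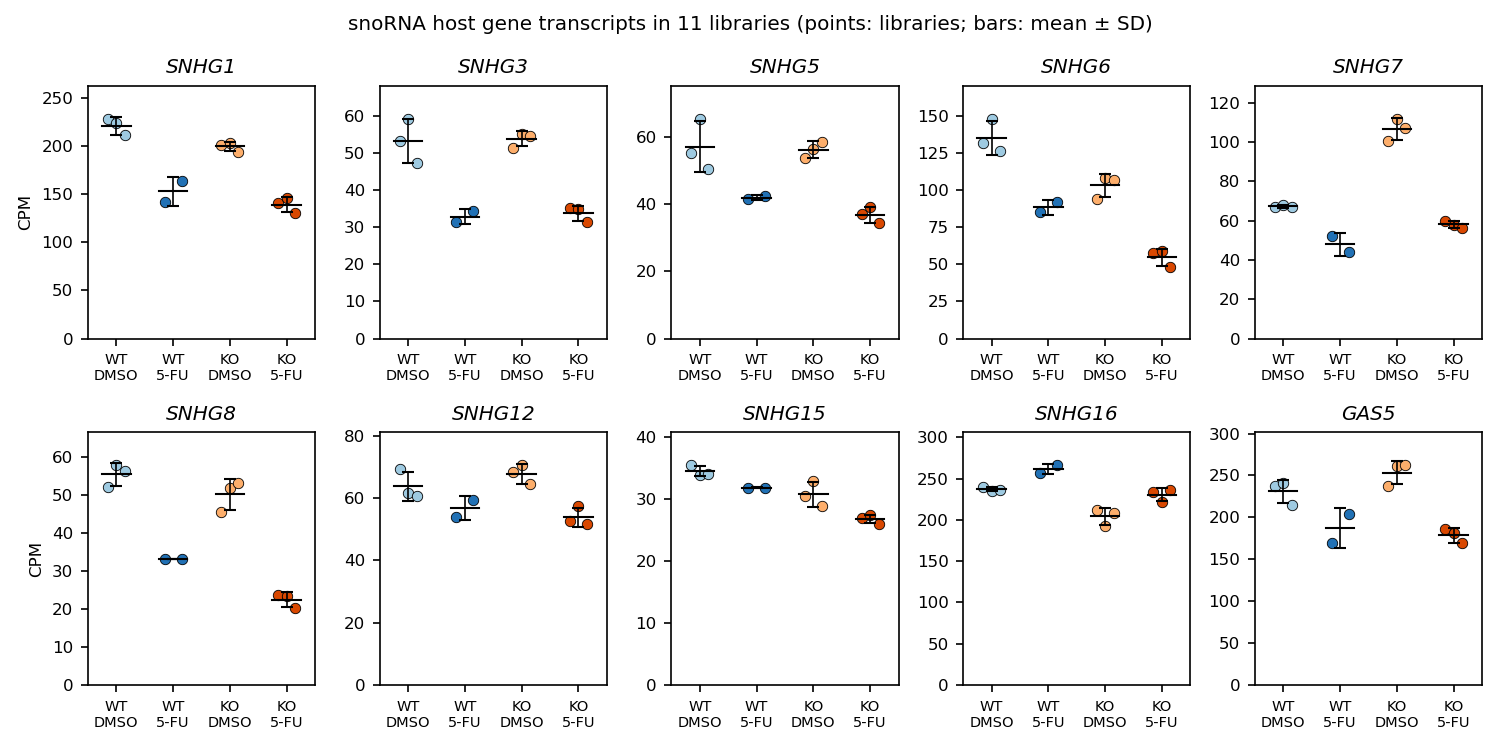
CPM of each of the 10 host transcripts in 11 libraries (upper-quartile scaled, linear axes from 0). Points are libraries and bars are the mean ± SD of *WT* DMSO (n = 3), *WT* 5-FU (n = 2), *KO* DMSO (n = 3) and *KO* 5-FU (n = 3). In 9 of the 10 panels the 5-FU points lie below the DMSO points of the same genotype, and *SNHG16* is the panel in which they lie above.

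The first question was how *WT* cells treated with 5-FU differed from those treated with DMSO. *SNHG8*, *SNHG3* and *SNHG6* fell by 40.2%, 38.2% and 34.5%, and no host rose past 1.5-fold. A gene is called here when FDR, the p-value of edgeR's quasi-likelihood test adjusted by Benjamini-Hochberg over all genes tested, is below 0.05 and the fold change is above 1.5. By this rule 3 of 10 hosts were lower and 0 were higher, where 9.38% of all genes tested were lower and 18.5% higher. By FDR alone, 7 hosts were lower and 1 higher (28.3% and 31.9% of all genes). The median log2 fold change of the hosts was -0.46, against 0.03 over all genes. The CPM of the 5-FU libraries lay below all DMSO libraries for 9 hosts and above them for 1, while this held for 32.3% and 36.5% of all genes.

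*SNHG8*, which carries SNORA24, had 52.1, 57.8 and 56.4 CPM in the *WT* DMSO libraries and 33.2 and 33.1 CPM in the 5-FU libraries. It fell by 0.74 on the log2 scale (SE 0.0851, edgeR FDR = 1.44e-06), the largest fall of the 10 in this genotype. *SNHG3*, host of the paired H/ACA genes SNORA73A and SNORA73B, had 53.1, 59.1 and 47.1 CPM under DMSO and 31.4 and 34.2 CPM after 5-FU. Its fall was 0.69 on the log2 scale, and both treated libraries lay well below the lowest control (log2 fold change -0.69, SE 0.0887, edgeR FDR = 4.79e-06). *SNHG6*, which carries the C/D gene SNORD87, had 131, 148 and 126 CPM under DMSO and 84.9 and 91.9 CPM after 5-FU. Its log2 fold change was -0.61 (SE 0.087, edgeR FDR = 1.52e-05), just past the 1.5-fold limit of 0.58 on the log2 scale. The *SNHG6* call was lost without *WT* DMSO replicate 2 (-0.54) or without *WT* 5-FU replicate 2 (-0.55).

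*SNHG1*, with 228, 224 and 211 CPM in the *WT* DMSO libraries and 142 and 164 CPM after 5-FU, and *SNHG7* lay just short of that limit. Their log2 fold changes were -0.53 (*SNHG1*, SE 0.0666, edgeR FDR = 3.78e-06) and -0.48 (*SNHG7*, SE 0.0699, edgeR FDR = 1.71e-05). Without 1 of the treated libraries each passed it, *SNHG1* at -0.64 without *WT* 5-FU replicate 3 and *SNHG7* at -0.62 without replicate 2. *SNHG5* (-0.44, SE 0.0909, edgeR FDR = 0.000533) and *GAS5* (-0.30, SE 0.0786, edgeR FDR = 0.00327) were also lower by FDR alone. *GAS5*, named for its accumulation in growth-arrested cells and known to bind the glucocorticoid receptor, had 237, 241 and 215 CPM under DMSO and 170.0 and 204 CPM after 5-FU, the latter 2 farther apart than those of most hosts. Without *WT* 5-FU replicate 2 its log2 fold change was -0.18 (edgeR FDR = 0.0594). *SNHG12* and *SNHG15* did not pass the test, with log2 fold changes of -0.17 (SE 0.074, edgeR FDR = 0.0583) and -0.12 (SE 0.0717, edgeR FDR = 0.174). *SNHG16*, host of the C/D genes SNORD1A, SNORD1B and SNORD1C, was higher by FDR alone. It had 240.3, 236 and 237 CPM under DMSO and 257 and 266 CPM after 5-FU (log2 fold change 0.14, SE 0.0556, edgeR FDR = 0.0402).

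Only 2 libraries stood for *WT* cells treated with 5-FU. With the copied library used as labelled, none of the 10 hosts was called in this comparison, with log2 fold changes of -0.50 (*SNHG3*, edgeR FDR = 0.0634), -0.42 (*SNHG6*, edgeR FDR = 0.0703) and -0.44 (*SNHG8*, edgeR FDR = 0.0924) for the hosts called without it.

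The second question was the same treatment in cells without miR-34a/b/c. Here 5 hosts fell, *SNHG8* by 55.3%, *SNHG6* by 46.8%, *SNHG7* by 45.5%, *SNHG3* by 37.2% and *SNHG5* by 34.4%. So 5 of 10 hosts were called lower and 0 higher, against 12.0% of all genes called lower and 13.3% higher. By FDR alone, 9 hosts were lower and 1 was higher (33.8% and 26.6% of all genes). The hosts' median log2 fold change was -0.57, against -0.06 over all genes. All 3 treated libraries lay below all 3 controls for 9 hosts and above them for 1, which held for 38.4% and 30.4% of all genes. The direction was thus the same for each host as in *WT* cells, from separate control libraries.

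*SNHG8* had 45.6, 51.8 and 53.1 CPM in the *KO* DMSO libraries and 23.7, 23.4 and 20.2 CPM in the 5-FU libraries. Its log2 fold change of -1.16 (SE 0.0787, edgeR FDR = 2.57e-09) was the largest of the 10 in size. *SNHG6* had 94.1, 108 and 107 CPM under DMSO and 57.5, 58.6 and 48.1 CPM after 5-FU (log2 fold change -0.91, SE 0.08, edgeR FDR = 5.86e-08). Of all groups, these treated *KO* cells held the least of both transcripts. *SNHG7*, host of the H/ACA pair SNORA17A and SNORA17B, went from 101, 112 and 107 CPM to 59.8, 58.0 and 56.5 CPM (log2 fold change -0.87, SE 0.0617, edgeR FDR = 4.19e-09). These treated libraries also lay below all 3 *WT* DMSO libraries.

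*SNHG3* had 51.4, 55.1 and 54.6 CPM under DMSO and 35.0, 34.7 and 31.4 CPM after 5-FU (log2 fold change -0.67, SE 0.0794, edgeR FDR = 1.90e-06). *SNHG5*, host of SNORD50A and SNORD50B, had 53.8, 56.5 and 58.8 CPM under DMSO and 37.3, 39.2 and 34.5 CPM after 5-FU (log2 fold change -0.61, SE 0.0826, edgeR FDR = 8.84e-06). *SNHG5* lay so near the limit of 0.58 that its call was lost with other scaling factors, at -0.56 with TMM factors and -0.52 with total counts, and also without *KO* DMSO replicate 3 (-0.57) or *KO* 5-FU replicate 3 (-0.56). *SNHG1* (-0.53, SE 0.0594, edgeR FDR = 1.15e-06) and *GAS5* (-0.51, SE 0.0702, edgeR FDR = 1.10e-05) were lower by FDR alone. *GAS5* had 237, 261 and 262 CPM under DMSO and 186, 181 and 169 CPM after 5-FU, so that its 3 treated libraries lay close together. *SNHG12* (-0.33, edgeR FDR = 0.000464) and *SNHG15* (-0.20, edgeR FDR = 0.0163) were lower by less. *SNHG16* was again higher, from 212, 193 and 208 CPM to 233, 222 and 236 CPM (log2 fold change 0.17, SE 0.0503, edgeR FDR = 0.00681).

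With TMM factors, total counts or DESeq2, 9 of the 10 hosts had log2 fold changes below 0 in each genotype, as in the values above. With 1 RUVg factor, a kind of correction named in the study's methods, 0 hosts were called in either genotype and the fitted log2 fold changes of *SNHG1*, *SNHG3*, *SNHG5* and *GAS5* turned positive in both, where 98.2% of the variance of that factor lay between the treatments. That factor and the treatment cannot be told apart. With total counts as the scale, the calls of *SNHG6* in *WT* cells (-0.57) and of *SNHG3* (-0.58) and *SNHG5* (-0.52) in *KO* cells were lost.

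**Figure D2:**
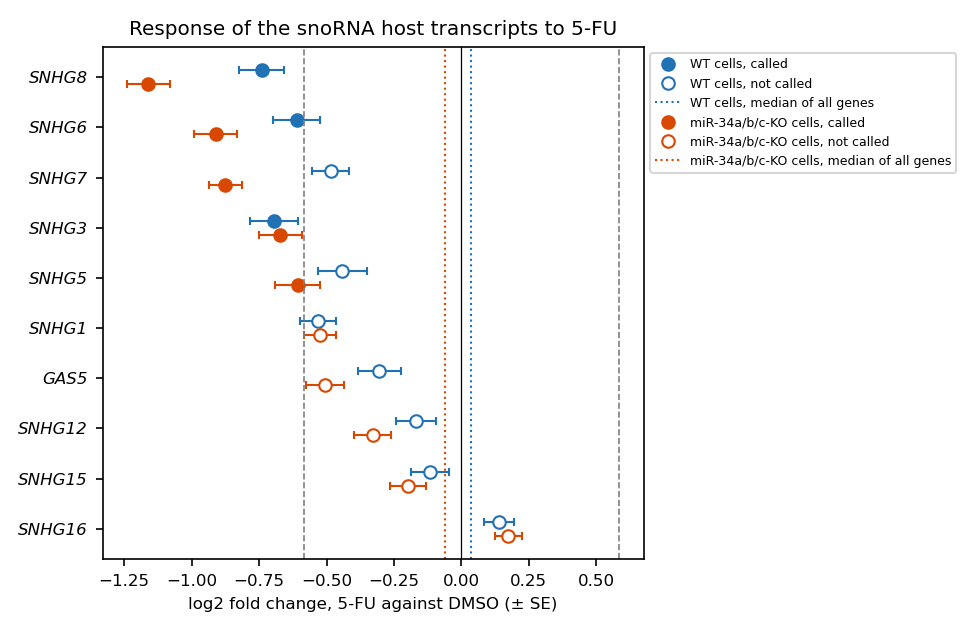
Log2 fold change of each host transcript, 5-FU against DMSO, in *WT* cells (blue) and *KO* cells (orange), with bars of ± SE from edgeR. Filled points were called, dashed lines mark a 1.5-fold change and dotted lines the median of all genes in each genotype. *SNHG8* is lowest in both, at -0.74 and -1.16, and *SNHG16* is the single host above 0.

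Whether the 5-FU response differed between the genotypes was tested by the interaction of genotype and treatment, that is, the log2 fold change in *KO* cells minus that in *WT* cells. *SNHG8* and *SNHG7* fell further without miR-34a/b/c. The difference was -0.42 for *SNHG8* (SE 0.115, edgeR FDR = 0.0135) and -0.39 for *SNHG7* (SE 0.0925, edgeR FDR = 0.00584), in both cases below 1.5-fold. For *SNHG7* it was -0.26 without *WT* 5-FU replicate 2. By the full rule edgeR called 0 hosts in either direction, as did DESeq2, against 3.42% of all genes higher and 6.66% lower. By FDR alone it was 2 lower and 0 higher, against 16.0% and 10.1% of all genes, so the hosts' share was near that background. At an unadjusted p below 0.05, 3 of the 10 hosts differed, as did 6203 of the 16123 genes, the third host being *SNHG6* (-0.30, SE 0.117, edgeR FDR = 0.0686). The median difference of the hosts was -0.16, against -0.09 over all genes. For *SNHG1* (0.01), *SNHG3* (0.02) and *SNHG16* (0.03), the differences were smaller than their SEs of 0.0885, 0.118 and 0.0751.

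The genotypes were then compared under DMSO. *SNHG7* rose by 58.4% in *KO* cells, the single host called (1 of 10 higher and 0 lower, against 9.10% of all genes higher and 4.97% lower). It had 66.9, 68.0 and 66.9 CPM in *WT* cells and 101, 112 and 107 CPM in *KO* cells (log2 fold change 0.66, SE 0.061, edgeR FDR = 2.45e-07), with a wide gap between the groups. By FDR alone, 1 host was higher and 3 were lower (24.5% and 21.9% of all genes). The 3 lower hosts were *SNHG6* (-0.39, SE 0.077, edgeR FDR = 0.000615), *SNHG16* (-0.22, SE 0.0502, edgeR FDR = 0.00205) and *SNHG15* (-0.17, SE 0.065, edgeR FDR = 0.0469). The hosts' median log2 difference was -0.08, against 0.03 over all genes, so that the group as a whole did not stand away from the other genes. *SNHG3* (0.02, SE 0.0773, edgeR FDR = 0.856) and *SNHG5* (-0.02, SE 0.0805, edgeR FDR = 0.875) were the closest to 0.

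In cells treated with 5-FU, *SNHG6* was the single host called between the genotypes. It was lower by 38.0% in *KO* cells, with 57.5, 58.6 and 48.1 CPM against 84.9 and 91.9 CPM in *WT* cells (log2 fold change -0.69, SE 0.0875, edgeR FDR = 8.52e-06). Thus 1 of 10 hosts was lower and 0 were higher, where 10.6% of all genes were lower and 7.58% higher. By FDR alone, 4 hosts were lower and 1 was higher (28.0% and 21.6% of all genes). *SNHG8* had 23.7, 23.4 and 20.2 CPM against 33.2 and 33.1 CPM, and its log2 difference of -0.56 (SE 0.087, edgeR FDR = 6.16e-05) lay just short of the 1.5-fold limit. It passed the limit without *KO* 5-FU replicate 1 (-0.60) or replicate 2 (-0.59). *SNHG15* (-0.25, edgeR FDR = 0.00947) and *SNHG16* (-0.18, edgeR FDR = 0.0120) were lower by less. *SNHG7* was higher, by 0.27 (SE 0.0702, edgeR FDR = 0.00417), where it was higher by 0.66 under DMSO. Without *WT* 5-FU replicate 3 it was higher by 0.16.

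Where each host lies was set beside these differences. *SNHG7* lies on chromosome 9 at 136721366-136728184 (GRCh38, GENCODE release 44, minus strand), and the 20 tested genes nearest to it span 136401922 to 136926607. Of these 20 genes, 19 were higher in *KO* cells under DMSO, 18 of them at an edgeR FDR below 0.05, and their median log2 difference was 0.73, against 0.66 for *SNHG7*. Under 5-FU the neighbours' median was 0.60, against 0.27 for *SNHG7*. The genotype difference of *SNHG7* under DMSO was thus shared by the genes around it. Its 5-FU responses of -0.48 and -0.87 were not those of the neighbours' medians, which were 0.26 in *WT* cells and 0.01 in *KO* cells. Single neighbours did fall, 7 of the 20 in *WT* cells (4 at an edgeR FDR below 0.05) and 9 in *KO* cells (6). Of the 20, 3 lay below *SNHG7* in *WT* cells and 1 in *KO* cells. Around other hosts called after 5-FU, the genes nearby fell too in part. Neighbours' medians in *WT* and *KO* cells were -0.36 and -0.43 for *SNHG5*, itself at -0.44 and -0.61. They were -0.30 and -0.42 for *SNHG8*, itself at -0.74 and -1.16. For *SNHG6* they were -0.15 and -0.14, and for *SNHG3* -0.02 and -0.06. *SNHG6* lies on chromosome 8 at 66920561-66926398, minus strand. Its genotype differences of -0.39 and -0.69 stood against neighbours' medians of 0.07 and 0.04, and 0 of its 20 neighbours lay below it in either treatment. For *SNHG8*, on chromosome 4 at 118278703-118285316, plus strand, the difference of -0.56 under 5-FU stood against -0.06, with 1 of 20 neighbours below it. The cause of the shift around *SNHG7* was not tested.

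**Figure D3:**
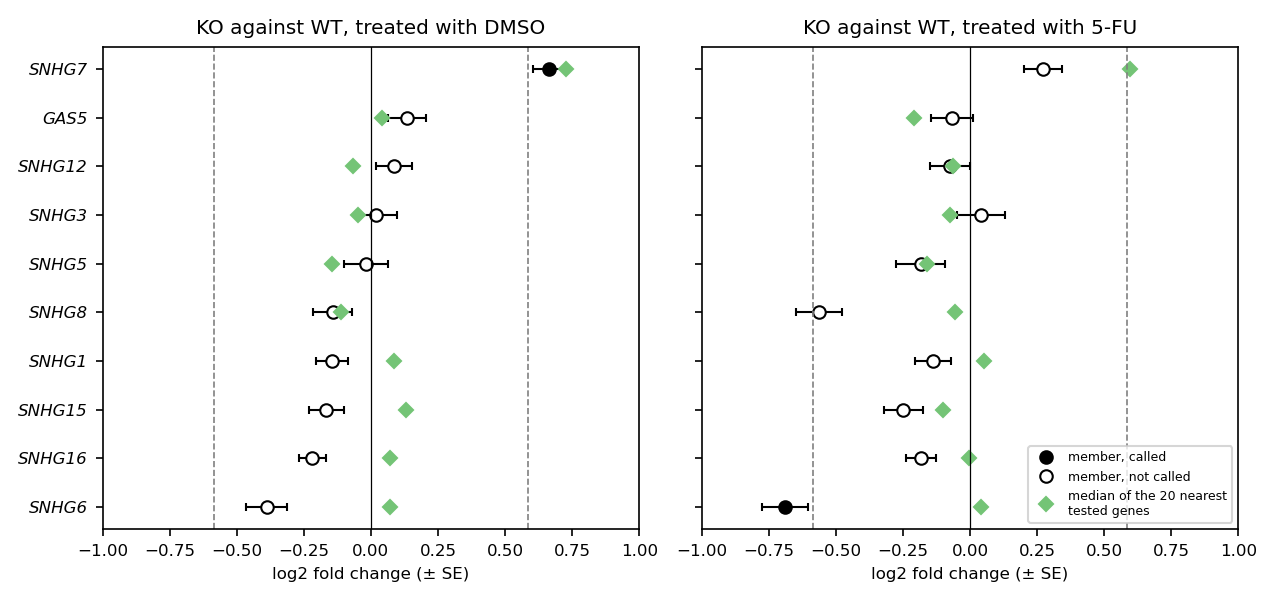
Log2 fold change of each host, *KO* against *WT*, under DMSO (left) and 5-FU (right), with bars of ± SE from edgeR (circles, filled where called), beside the median of the 20 nearest tested genes on its chromosome (green diamonds). Dashed lines mark a 1.5-fold change. Under DMSO *SNHG7* (0.66) lies beside its neighbours (0.73), whereas under 5-FU *SNHG6* (-0.69) lies far below its own (0.04).

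Some hosts share bases with other genes, and the sources used here do not say whether reads were counted by strand. *SNHG8* shares 2487 exon bases with *PRSS12* on the opposite strand, a serine protease gene that also fell after 5-FU (-0.64 in *WT* and -0.82 in *KO* cells), so that reads of these 2 genes cannot be told apart there. Between the genotypes under 5-FU, *PRSS12* was at -0.03 where *SNHG8* was at -0.56. *SNHG7* shares 1482 bases with *DIPK1B* on the opposite strand, which was at -0.0012 between the genotypes under DMSO where *SNHG7* was at 0.66. After 5-FU, however, *DIPK1B* was at -0.03 in *WT* and -0.43 in *KO* cells. Its interaction of -0.40 (edgeR FDR = 0.0446) was close to the -0.39 of *SNHG7*, and what the shared bases add to either was not tested. *SNHG3* shares 242 bases with *RCC1*, the exchange factor of the Ran GTPase, on its own strand, and *RCC1* was at -0.17 and -0.33 after 5-FU where *SNHG3* was at -0.69 and -0.67. *SNHG6* shares 1488 bases with *MCMDC2*, which did not pass the count filter.

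Over the 11 libraries, the levels of the hosts mostly varied together. Of 45 pairs of hosts, 37 had a positive Pearson correlation of log2 CPM and 12 had one above 0.9 (median 0.789). The closest pair was *SNHG6* and *SNHG8* at 0.965, and the farthest *SNHG7* and *SNHG16* at -0.909. With the mean of the other hosts, *SNHG1* and *SNHG8* had r = 0.974, *SNHG5* 0.960, *SNHG6* 0.937, *SNHG3* 0.915, *GAS5* 0.890, *SNHG12* 0.847 and *SNHG15* 0.760. *SNHG7* had 0.518 and *SNHG16* -0.444, so these 2 stood apart from the rest. Among 16026 genes outside the lists, those most like the mean of the hosts were *TMEM14B* (r = 0.990), *SPA17* (0.988), *HNRNPA2B1* (0.986), *CZIB* (0.986) and *MCUB* (0.986). All these values describe 11 libraries that share 4 groups and their treatment, and no test was made of them.

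Other hosts and the proteins that act on snoRNAs were examined as further lists. Over all genes the median log2 fold change after 5-FU was 0.03 in *WT* and -0.06 in *KO* cells. Of 23 other non-coding snoRNA hosts, 16 were tested. After 5-FU in *WT* cells 2 rose, *SNHG26* (0.87) and *SNHG20* (0.63), and 1 fell, *SNHG30* (-0.71), where 18.5% of all genes rose and 9.38% fell, with a median log2 fold change of -0.10. In *KO* cells 7 of the 16 fell and 0 rose, where 12.0% and 13.3% of all genes did, with a median of -0.55, close to the -0.57 of the 10 main hosts. The largest falls were those of *SNHG19* (-1.54), *SNHG21* (-1.05) and *SNHG9* (-0.98). Of these, *SNHG9* had few counts, 25 to 54 in the *KO* DMSO and 14 to 34 in the *KO* 5-FU libraries (SE 0.366, edgeR FDR = 0.0294). *SNHG21* had 90 to 115 and 44 to 49 counts in the same groups. The interaction was called lower for 3 of the 16, *SNHG19* (-0.99), *SNHG11* (-0.78) and *DANCR* (-0.73), against 6.66% of all genes. Between the genotypes under DMSO, 1 of the 16 was called higher, *SNHG19* (1.23), and 0 lower, against 9.10% and 4.97% of all genes. Under 5-FU 2 of the 16 were called lower in *KO* cells, *DANCR* (-0.78) and *EPB41L4A-AS1* (-0.62), and 0 higher, against 10.6% and 7.58% of all genes. These shares were near those of all genes.

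The 32 protein-coding snoRNA hosts listed include nucleolar proteins, translation factors and chaperones. After 5-FU, 4 fell and 0 rose in *WT* cells (median -0.31) and 3 fell and 0 rose in *KO* cells (median -0.34). Of all genes, 9.38% and 12.0% fell and 18.5% and 13.3% rose, so the shares that fell were near that background. By FDR alone 24 and 26 were lower (28.3% and 33.8% of all genes). *HSPA8*, a constitutive chaperone that hosts C/D snoRNAs, fell by 1.19 and 0.73 on the log2 scale in *WT* and *KO* cells. *GNL3*, a nucleolar GTPase, fell by 0.76 and 0.68, *CWF19L1* fell by 0.79 in *WT* cells and *TOMM20* by 0.60 in *KO* cells. Between the genotypes 0 were called under DMSO or under 5-FU, though 24 and 21 were lower by FDR alone (21.9% and 28.0% of all genes), and of the interaction 0 were called, with 6 higher and 2 lower by FDR alone (10.1% and 16.0% of all genes).

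Of the 11 box C/D snoRNP genes, 0 were called after 5-FU in *WT* cells and 1 fell in *KO* cells, *FBL* (-0.71), the methyltransferase of these particles. Among all genes 9.38% fell in *WT* and 12.0% in *KO* cells. By FDR alone, however, 7 of the 11 were lower in *WT* and 9 in *KO* cells, and 0 were higher in either. Of all genes 28.3% and 33.8% were lower by FDR alone, and 31.9% and 26.6% higher. Under 5-FU, 4 were lower in *KO* than in *WT* cells, led by *FBL* (-0.70), *RUVBL1* (-0.62) and *SNU13* (-0.62), against 10.6% of all genes. Of the 6 box H/ACA snoRNP genes, *GAR1* fell after 5-FU in *KO* cells (-0.70), against 12.0% of all genes. By FDR alone 3 of the 6 were lower in *WT* and 4 in *KO* cells, and 0 were higher in either. Under 5-FU *GAR1* (-0.66) and *NHP2* (-0.65) were lower in *KO* than in *WT* cells, against 10.6% of all genes. Neither list held a call under DMSO, where 9 of 11 and 5 of 6 genes were lower by FDR alone (21.9% of all genes), nor in the interaction. Of the 18 NMD factors, 1 fell after 5-FU in each genotype, *MAGOHB*, a subunit of the exon junction complex (-1.11 in *WT* and -0.77 in *KO* cells). That share was below the 9.38% and 12.0% of all genes that fell. By FDR alone 3 NMD factors were higher and 9 lower in *WT* cells (31.9% and 28.3% of all genes), with a median of -0.16. The share lower in *WT* cells was thus above that of all genes. In *KO* cells 4 were higher and 5 lower (26.6% and 33.8% of all genes), with a median of 0.02. Both shares in *KO* cells were near or below those of all genes. No NMD factor was called between the genotypes or in the interaction.

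**Figure D4:**
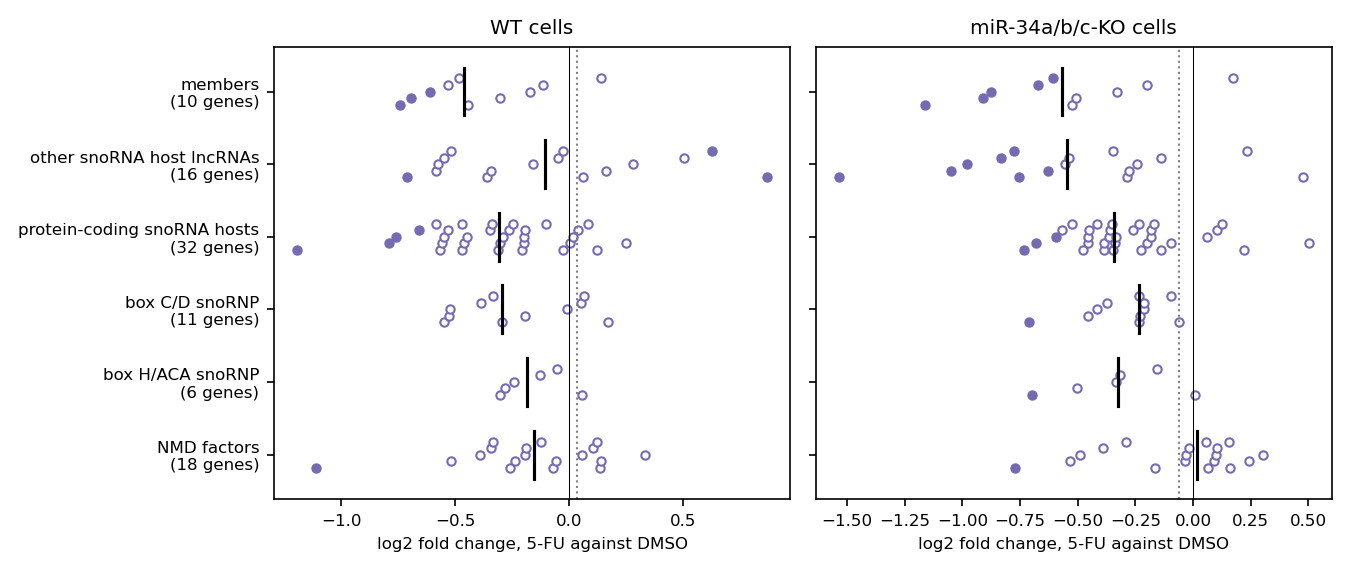
Log2 fold changes, 5-FU against DMSO, of the genes of each list in *WT* (left) and *KO* cells (right). Each point is a gene (filled where called), black bars are list medians and dotted lines the median of all genes. The medians of the 10 hosts are -0.46 and -0.57, and that of the 16 other non-coding hosts is -0.10 in *WT* and -0.55 in *KO* cells.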

How the data were processed

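RNA of the 4 states was sequenced by the authors from random-primed libraries as paired-end reads, mapped in CLC Genomics Workbench against GRCh38 and its ENSEMBL annotation. The release and the strand setting are not given in the sources used here. The counts were deposited by the authors as whole numbers per gene symbol, without filtering or scaling. Samples were grouped by their titles. From the deposited counts, CPM were computed with upper-quartile factors (0.955 to 1.05), and the 16123 genes that reached 20 counts in some library were fitted in edgeR 4.0.16 (glmQLFit and glmQLFTest, two-sided, R 4.3.3) with a mean per state over 11 libraries, which share 1 estimate of the spread. The 4 differences between states and the interaction were each adjusted by Benjamini-Hochberg over all genes tested. Median depth was 25698417 counts, and low counts limit the precision of a gene. Comparisons with the same state share its libraries.

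The 10 members and all lists were chosen with earlier results of these data known. All members are named. Of every other list, up to 3 called genes with the largest change per comparison are named, together with the 5 genes most correlated with the mean z-score of the members. Alternatives were DESeq2 1.42.0, TMM and total-count scaling, RUVg (1 factor), glmTreat, other filters, no minimum fold, a replicate block, the copied library and leaving out each library. The scripts were tested on simulated data. Positions were taken from GENCODE release 44 (14135 of 16123 tested symbols had 1 position) and hosted snoRNAs and promoters from RefSeq. Not every gene that overlaps a host is reported here.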

Additional observations from a re-analysis of the deposited data

Results flagged for a closer look

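The 5-FU responses of *SNHG7* and *SNHG8* differed between the genotypes by the interaction test of edgeR. *SNHG7* had a log2 fold change of -0.48 in *WT* and -0.87 in *KO* cells, a difference of -0.39 (SE 0.0925, FDR = 0.00584), and of -0.26 without *WT* 5-FU replicate 2. *SNHG8* had -0.74 and -1.16, a difference of -0.42 (SE 0.115, FDR = 0.0135). Both differences were below 1.5-fold. By FDR alone 2 of the 10 hosts were thus lower and 0 higher, against 16.0% and 10.1% of all genes, a share near that background. *DIPK1B*, which shares 1482 exon bases with *SNHG7*, had an interaction of -0.40 (edgeR FDR = 0.0446). Groups of 3 or fewer libraries were too small to look for single libraries far from the others.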

How the results depend on the processing

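The number of hosts called was 3 after 5-FU in *WT* cells, 5 in *KO* cells, 1 between the genotypes under DMSO, 1 under 5-FU and 0 for the interaction, listed in this order below. With 1 RUVg factor the counts were 0, 0, 0 and 2, and 0 for the interaction. With the minimum fold inside the test (glmTreat) they were 0, 3, 0, 0 and 0, and with no minimum fold 8, 10, 4, 5 and 2. Total counts gave 2, 3, 1, 1 and 0, and the copied library used as labelled, chosen after seeing the data, gave 0, 5, 1, 2 and 0. With TMM factors, DESeq2, no filter or 20 counts in every library each count was within 1.5 times the main one. Leaving out each library in turn gave 2 to 4, 4 to 5, 1 to 1, 1 to 2 and 0 to 0.

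No sign was seen that the replicate numbers of the titles pair the samples, though groups of 2 or 3 libraries cannot exclude it. In 15 pairs of same-numbered libraries, deviations from the group means correlated at -0.151 to 0.155, and 2 exceeded 0.1. With the replicate block the counts were 3, 5, 1, 1 and 0, as without it, and so they were with the numbers of the column headers, an alternative chosen after seeing the data. The block moved the interaction of *SNHG1* from 0.01 to -0.0072.

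With the RUVg factor, log2 fold changes after 5-FU turned positive for *SNHG1* (0.69 in *WT* and 0.56 in *KO* cells), *SNHG3* (0.91 and 0.75), *SNHG5* (0.62 and 0.33), *GAS5* (1.53 and 1.12) and, in *WT* cells, *SNHG12* (0.19), at an FDR of at least 0.520. It also turned the genotype differences of *SNHG1* (0.0525) and *SNHG5* (0.15) under DMSO and of *GAS5* (0.0218) under 5-FU, and the interactions of *SNHG1* (-0.13), *SNHG3* (-0.16) and *SNHG16* (-0.10). The other reversals were of values near 0. Total counts turned *SNHG5* under DMSO (0.0077) and *SNHG12* (0.0037) and *GAS5* (0.0099) under 5-FU, DESeq2 (-0.0072) and no filter (-0.0037) turned *SNHG3* under DMSO, and 20 counts in every library turned the interaction of *SNHG1* (-0.0133). The copied library turned *SNHG3* under 5-FU (-0.16) and the interactions of *SNHG1* (-0.17) and *SNHG3* (-0.17). With each library left out, values ran from -0.0616 to 0.101 (*SNHG3*) and -0.10 to 0.0873 (*SNHG5*) between the genotypes under DMSO, from -0.0158 to 0.101 (*SNHG3*) and -0.19 to 0.0692 (*GAS5*) under 5-FU, and for the interaction from -0.0901 to 0.111 (*SNHG1*), -0.0596 to 0.104 (*SNHG3*) and -0.0056 to 0.0633 (*SNHG16*). The cause of these reversals was not tested. Each host had at least 483 counts in every library, how far counting error limits these values was not tested, and *WT* 5-FU had 2 libraries.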
